A study of Mus musculus with 18 samples.

Results

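The dorsal pallium glutamatergic regulators are 10 mouse genes that build or mark the excitatory lineage of the embryonic cortex: Pax6, Emx1, Emx2, Neurog1, Neurog2, Eomes, Tbr1, Neurod1, Neurod6 and Fezf2. They were listed by name, with a rule that uses no measured value, but with earlier results of these data known. They are 10 of 20665 autosomal protein-coding genes of the RefSeq table for GRCm38. For each gene, all intervals of a library that touch the gene body or the 2.5 kb on either side of it were collected, with their counts and covered bases. The mark measured was H3K27me3, trimethylation of lysine 27 of histone H3, by bulk CUT&Tag, in which a transposase is tethered to an antibody on chromatin and the DNA nearby is tagged and sequenced. The tissue was the medial ganglionic eminence (MGE), a ventral forebrain region that gives rise to cortical interneurons. There were 3 WT and 3 Ezh2 KO libraries at the embryonic stage E12.5 and 3 of each at E15.5, 12 of the 18 samples of the series; the 6 heterozygous samples are not analysed here.

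Animals labelled KO have the genotype Nkx2.1-CreC/+;Ezh2;Ai9F/+, so that Ezh2 is deleted only where the Nkx2-1 driven Cre acts. Nkx2.1-CreC/C;Ezh2F/+ males and Ai9F/F;Ezh2F/+ females were the parents. By that cross each embryo, WT included, receives a copy of the Cre and of the Ai9 reporter. Other cells of the dissected tissue keep Ezh2, and embryos of the same genotype were pooled where applicable, per the labels' protocols. The whole MGE was taken at E12.5, whereas at E15.5 the dissection was guided by the tomato reporter, so that stage and dissection cannot be told apart. The tissue label could not be checked against marker genes, because a repressive chromatin mark is not a measure of expression.

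EZH2 is a catalytic subunit of Polycomb repressive complex 2, which places H3K27me3, and broad domains of the mark cover developmental regulators in cells that do not use them. In the pallium PAX6 and the EMX factors act in progenitors, the neurogenins start neurogenesis, EOMES marks intermediate progenitors, and TBR1, the NEUROD factors and FEZF2 act in young excitatory neurons. The MGE instead makes GABAergic neurons under NKX2-1, so these genes belong to a fate that the dissected tissue does not take.

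Per library, the deposited lists held 5008 to 13289 intervals with 573838 to 6846250 counts. The depth of a library, recovered as the mean count per 200 bp window behind the deposited scores, was least in E15.5 WT replicate 1, at 0.0751, and greatest in E12.5 WT replicate 2, at 0.698. Normalised counts below are interval counts divided by the depth of the library relative to the mean of all 12. No spike-in is stated, so a change in the total amount of the mark and a change in background are not separated by this scaling. In bulk tissue, fewer marked cells and less mark per cell cannot be told apart. The labels call the replicates biological without naming animals or litters, so p-values measure the spread between these samples.

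Of the 10 genes, 9 had an interval in all 12 libraries, against 12.1% of the 20665 genes (2492). In each library an interval reached between 15.9% and 31.5% of all genes. Among 36 other genes of the dorsal pallium and of cortical projection neurons, 25 had an interval in all 12 libraries, and of 15 autosomal genes of the ventral telencephalon 14 did. None of 13 autosomal housekeeping genes did, and 10 of those had none in any library. The exception among the pallial regulators was Neurod6, a bHLH factor of differentiating cortical neurons, with an interval in 6 of 12 libraries.

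The stretches of 250 bases before 4 start sites are shown because the genes differ in H3K27me3 and in CG content. Emx2 is the gene with the largest changes below, Neurog1 is CG rich and covered in every library, Tbr1 is covered in every library with few CG dinucleotides, and Neurod6 has no interval over its start in any library. They are taken from RefSeq (GRCm38.p6), run 5′ to 3′ along the gene's own strand and end at the base before the start site, with every CG dinucleotide in capitals.
Emx2, chr19:59458440-59458689, plus strand: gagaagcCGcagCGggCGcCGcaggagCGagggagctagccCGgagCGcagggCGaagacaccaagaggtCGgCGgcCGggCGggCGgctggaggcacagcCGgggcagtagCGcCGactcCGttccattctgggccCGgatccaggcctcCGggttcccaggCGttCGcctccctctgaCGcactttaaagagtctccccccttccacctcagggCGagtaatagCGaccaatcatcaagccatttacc
Neurog1, chr13:56252181-56252430, minus strand: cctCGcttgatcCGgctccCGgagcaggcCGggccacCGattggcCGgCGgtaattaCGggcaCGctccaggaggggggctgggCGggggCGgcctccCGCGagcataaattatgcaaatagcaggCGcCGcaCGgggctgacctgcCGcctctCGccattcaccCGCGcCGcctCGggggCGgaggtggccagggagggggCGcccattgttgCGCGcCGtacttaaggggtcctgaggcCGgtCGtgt
Tbr1, chr2:61804203-61804452, plus strand: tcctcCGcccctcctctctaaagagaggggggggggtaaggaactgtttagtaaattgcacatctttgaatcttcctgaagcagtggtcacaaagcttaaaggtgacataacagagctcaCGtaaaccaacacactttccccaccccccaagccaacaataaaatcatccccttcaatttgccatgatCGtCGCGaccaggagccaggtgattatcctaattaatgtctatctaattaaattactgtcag
Neurod6, chr6:55681264-55681513, minus strand: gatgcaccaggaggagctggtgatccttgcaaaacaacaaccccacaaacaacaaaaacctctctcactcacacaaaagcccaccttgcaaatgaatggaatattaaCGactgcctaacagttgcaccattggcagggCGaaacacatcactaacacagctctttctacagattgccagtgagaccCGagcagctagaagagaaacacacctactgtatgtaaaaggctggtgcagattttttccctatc
The Emx2 stretch holds 24 CG dinucleotides, a number that 16.2% of 20085 promoters of the same length reach. The Neurog1 stretch holds 29, reached by 9.13% of promoters, and that of Emx1, not printed, holds the most of the set with 30. Tbr1 has 5, reached by 67.2%, and Neurod6 has 3, reached by 78.0%. Across all genes in the table, promoters whose start lay in an interval in all 12 libraries (1401, or 6.98%) had a median of 15, and those with none in any library (14420, or 71.8%) had a median of 6. Tbr1, and also Neurog2 and Eomes with 8 each, were thus covered in every library with fewer CG dinucleotides than the median of 10 over all promoters. The start sites used for Tbr1 and Neurog2 lie inside their gene bodies, chr2:61802863-61814114 and chr3:127632733-127635636. Their 250 bases are therefore also inside the gene and do not precede its 5′ end.

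The mark lay in broad domains over all or most of each gene, with the start site inside an interval in all 12 libraries for each of the 9 genes. Stretches covered in all 12 libraries are given in GRCm38, counted from 1. The longest was at Pax6, the homeodomain and paired-domain regulator of cortical radial glia, where chr2:105655801-105693800 (38 kb) took in both annotated start sites. The Neurog2 stretch, chr3:127622201-127650600, was 28.4 kb around a gene body of 2.90 kb. At Fezf2, the zinc finger gene of corticofugal neurons, the stretch was chr14:12332801-12357400 (24.6 kb).

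The homeobox gene Emx2 lay within chr19:59449401-59472400 (23 kb), and its window was 100% covered in every library. Neurog1, the other neurogenin, had a stretch of 18 kb (chr13:56246001-56264000) around a body of 1.70 kb, and Eomes had 15.8 kb (chr9:118474401-118490200). The remaining stretches were 14.4 kb at Tbr1 (chr2:61801801-61816200), 12.4 kb at Emx1 (chr6:85183001-85195400) and 7.8 kb at Neurod1 (chr2:79453801-79461600). Of the 9 genes Emx1 was the least covered: the share of its window inside intervals ran from 54.5% to 100%, with a median of 76.0%. Its main interval ended inside the gene body of 16.5 kb in 10 of 12 libraries. Pax6 was never covered in full (79.4% to 96.2%), and its main interval ended inside the gene body in every library. Coverage ran from 88.6% to 100% at Tbr1 and from 81.5% to 100% at Neurod1.

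**Figure D1:**
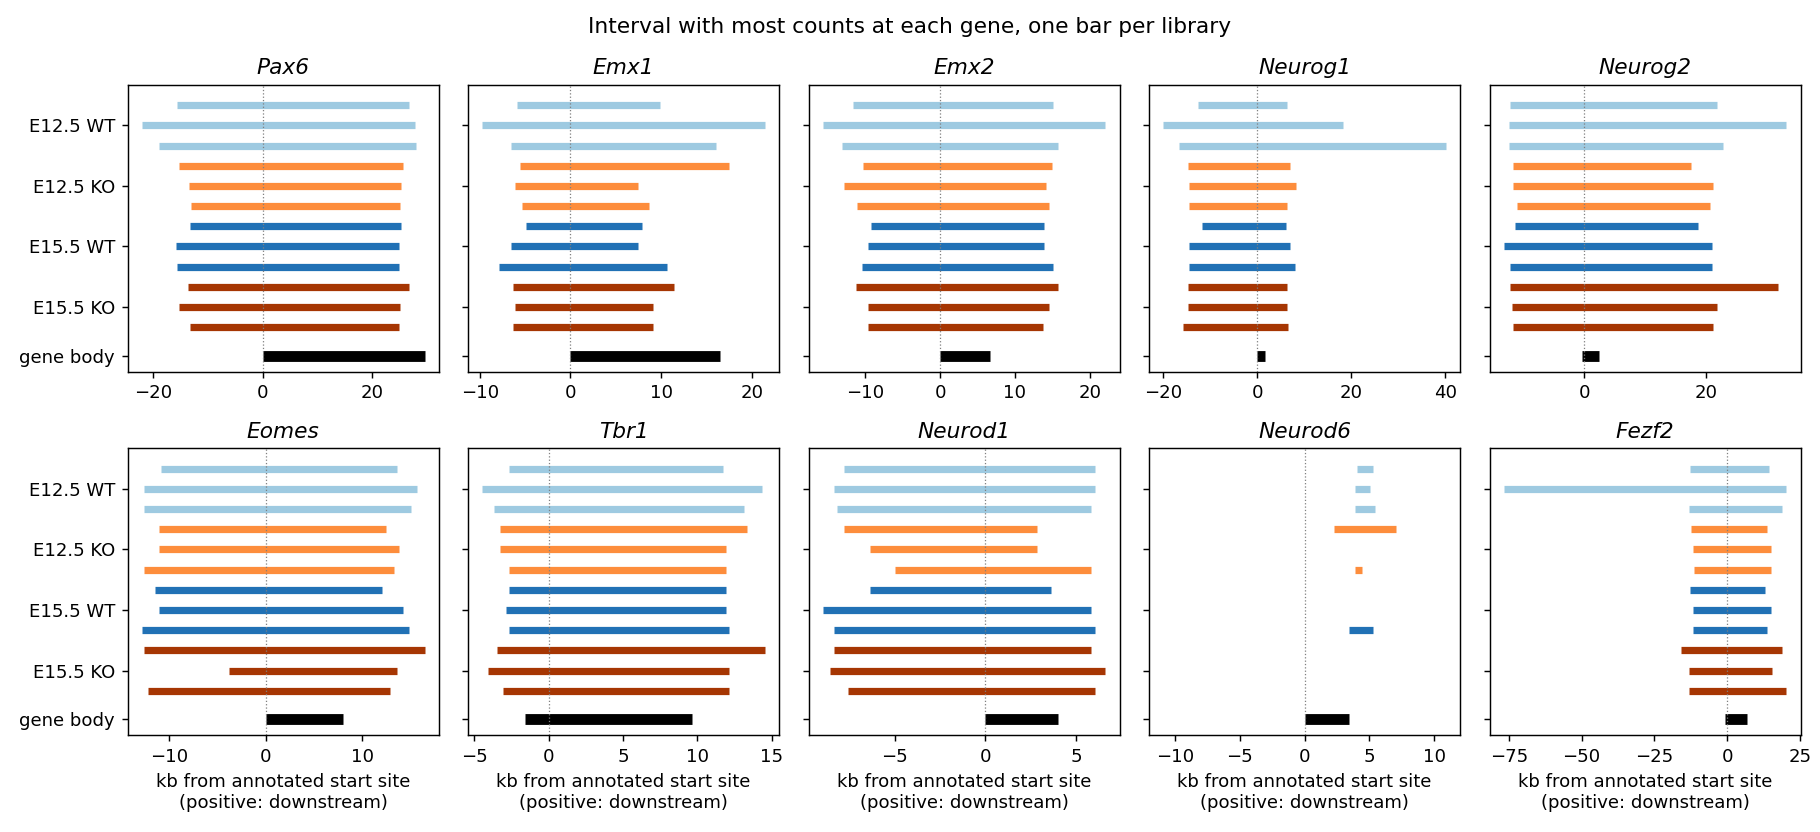
Interval with the most counts at each of the 10 genes, with 1 bar per library coloured by stage and genotype, in kb from the annotated start site along the gene, and the gene body in black. Bars cover the start site in all libraries except at Neurod6, and the bars that reach farthest belong to E12.5 WT replicate 2 at Fezf2 (96.8 kb) and E12.5 WT replicate 3 at Neurog1 (56.8 kb).

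These intervals reach beyond the genes, so their counts also take in neighbours. The stretch at Pax6 overlapped Pax6os1 and Paupar, that at Emx2 the antisense transcript Emx2os, and that at Eomes Gm33408 and Gm33460. Gm40147 was overlapped by the stretch at Neurog2 and Gm24578 by that at Fezf2. The non-coding 4930550C17Rik was touched by the Neurog1 intervals of 2 libraries. Among protein-coding neighbours, Elp4 was touched by the Pax6 intervals of 4 libraries, Cadps by the Fezf2 interval of 1 library and Psmd14 by the Tbr1 interval of 1 library. The longest interval of the set, 96.8 kb at Fezf2, was in the deepest library, E12.5 WT replicate 2. The part of depth in interval length was not tested.

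Per kb of interval, the normalised count was highest at Pax6 in each of the 12 libraries, with a median of 271 and a range of 208 to 355. The medians that followed were 196 at Fezf2, 189 at Neurog2, 182 at Neurog1 and 176 at Emx1. Neighbours among these 4 were not clearly ordered, since each exceeded the next in only 6, 6 and 5 of 12 libraries. Tbr1 came next with 155 and was below Emx1 in 10 of 12 libraries. Eomes (118) was below Tbr1 in 10 of 12. Eomes exceeded Emx2 (110) in 5 of 12 libraries and Emx2 exceeded Neurod1 (97.1) in 8 of 12, so neither of these neighbours was clearly ordered. Among all genes with an interval in a library, the 9 genes were dense. The median percentile of their count per kb ran from 90.3 at Neurod1 to 99.1 at Pax6, and the lowest value in any library was 82.1, at Emx2.

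Neurod6 carried hardly any counts. The interval counts were 8, 53 and 43 in the E12.5 WT replicates, 22, 0 and 13 in E12.5 KO, 0, 0 and 11 in E15.5 WT, and 0 in all 3 E15.5 KO libraries. Of its 6 intervals, 5 lay in the flank beyond the 3′ end of the gene (chr6:55677818-55681263, minus strand) and that of E12.5 KO replicate 1 reached into the gene. These intervals covered from 7.10% to 43.6% of its window and never reached the start site. Over all 12 libraries, those without an interval included, the median share covered was 3.55%. The libraries without an interval are not the shallowest ones alone: the E15.5 KO libraries, at depths of 0.179 to 0.346, had none, and E15.5 WT replicate 3, at 0.150, had 1. A library without an interval has no count in the file, so Neurod6 was in none of the main tests. It entered 3 alternative fits, 2 for KO against WT at E12.5 and 1 for WT between stages, and was called in none of them.

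The first comparison asks how deletion of Ezh2 changed the mark at these genes at E12.5. The 9 genes tested all had negative differences between KO and WT, but none passed the test, and 6 of the 9 differences were smaller in size than that of the median gene with the mark. At Neurog1, the bHLH factor that starts neurogenesis, the normalised counts were 5335, 4862 and 5435 in WT and 2410, 3858 and 3329 in KO. Every KO library was below every WT library, and the KO mean was 61.4% of the WT mean. The log2 change was -0.70 (SE 0.26, n = 3 and 3, adjusted p = 0.120 in edgeR's quasi-likelihood test with Benjamini-Hochberg adjustment over all genes). The Neurog1 intervals were 19, 38.2 and 56.8 kb long in WT and 21.8, 22.6 and 20.8 kb in KO. Per kb the groups overlapped, at 281, 127 and 95.7 in WT and 111, 171 and 160 in KO. With counts in proportion to the overlap with the gene window, the log2 change was -0.19 (adjusted p = 0.680 in edgeR). The part of interval length in the difference was not tested.

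Emx2 had 5378, 4676 and 4328 normalised counts in WT and 2622, 2891 and 3502 in KO, so its groups did not overlap either. The WT mean was 4794 ± 535 and the KO mean 3005 ± 451 (SD, n = 3 each), and edgeR gave a log2 change of -0.67 (SE 0.25, adjusted p = 0.123). Per kb the Emx2 groups overlapped, at 201, 124 and 150 in WT and 104, 107 and 137 in KO. With counts in proportion to the overlap with the gene window, its log2 change was -0.45 (adjusted p = 0.306 in edgeR). The part of interval length was not tested here either. Neurod1, a bHLH factor of newborn excitatory neurons, had 1276, 1459 and 1416 in WT and 641, 982 and 986 in KO. All KO values lay below all WT values, with a log2 change of -0.67 (SE 0.29, adjusted p = 0.157 in edgeR).

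KO was also wholly below WT at Emx1 (log2 change -0.37, SE 0.25) and at Eomes (-0.37, SE 0.26), though per kb the groups at Emx1 overlapped. On normalised counts that makes 5 of 9 genes without overlap, against 33% of all 3140 genes tested (1035). The 4 others overlapped: Fezf2 at -0.31, Pax6 at -0.21, Neurog2 at -0.16 and Tbr1, a T-box factor of early cortical neurons, at -0.15 on the log2 scale. At each of the 9 genes the lowest KO value was that of E12.5 KO replicate 1. Without it 0 of 9 genes were called in edgeR, the median of the 9 was -0.24, and Emx2, Neurog1 and Neurod1 were at -0.58, -0.54 and -0.49.

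With the test set at an adjusted p of 0.05, 0 of 9 genes were called in edgeR, against 4.04% of all 3140 genes called lower (127) and 0% called higher. At an unadjusted p under 0.05, 3 of the 9 passed, against 905 of all 3140 genes. The median log2 change of the 9 genes was -0.37 and that of all genes -0.57. Among the 29 other dorsal genes tested 1 was called, and the list's median was -0.34. The gene called was Gli3, the zinc finger effector of hedgehog signalling that patterns the pallium, at -3.03 (SE 0.48, adjusted p = 0.00273 in edgeR). In every E12.5 library its normalised count was below the lowest E12.5 value of the 9 genes, 641 at Neurod1 in KO. The Gli3 change thus rests on small counts. The 15 ventral genes tested had a median of 0.17, with 0 called in edgeR and 3 at an unadjusted p under 0.05. With TMM factors, described next, their median was 0.67, with 2 called higher and 12 at an unadjusted p under 0.05. Of all 3140 genes, 9 were called higher in that fit and 548 had an unadjusted p under 0.05.

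The call at E12.5 depends on what is counted and on the scaling. When overlapping intervals of the libraries were merged into regions and each region was tested, the log2 change was -0.67 at Emx2 (adjusted p = 0.0221) and -0.68 at Neurog1 (adjusted p = 0.0173), in an edgeR fit where 10.4% of 3243 regions were called lower. With TMM factors, which centre the libraries on their typical gene, the median of all genes moved from -0.57 to -0.05 and that of the 9 genes from -0.37 to 0.15, with 0 of the 9 called and 0.287% of all genes called higher. The differences then stayed negative at Emx2 (-0.16), Neurog1 (-0.18) and Neurod1 (-0.15).

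**Figure D2:**
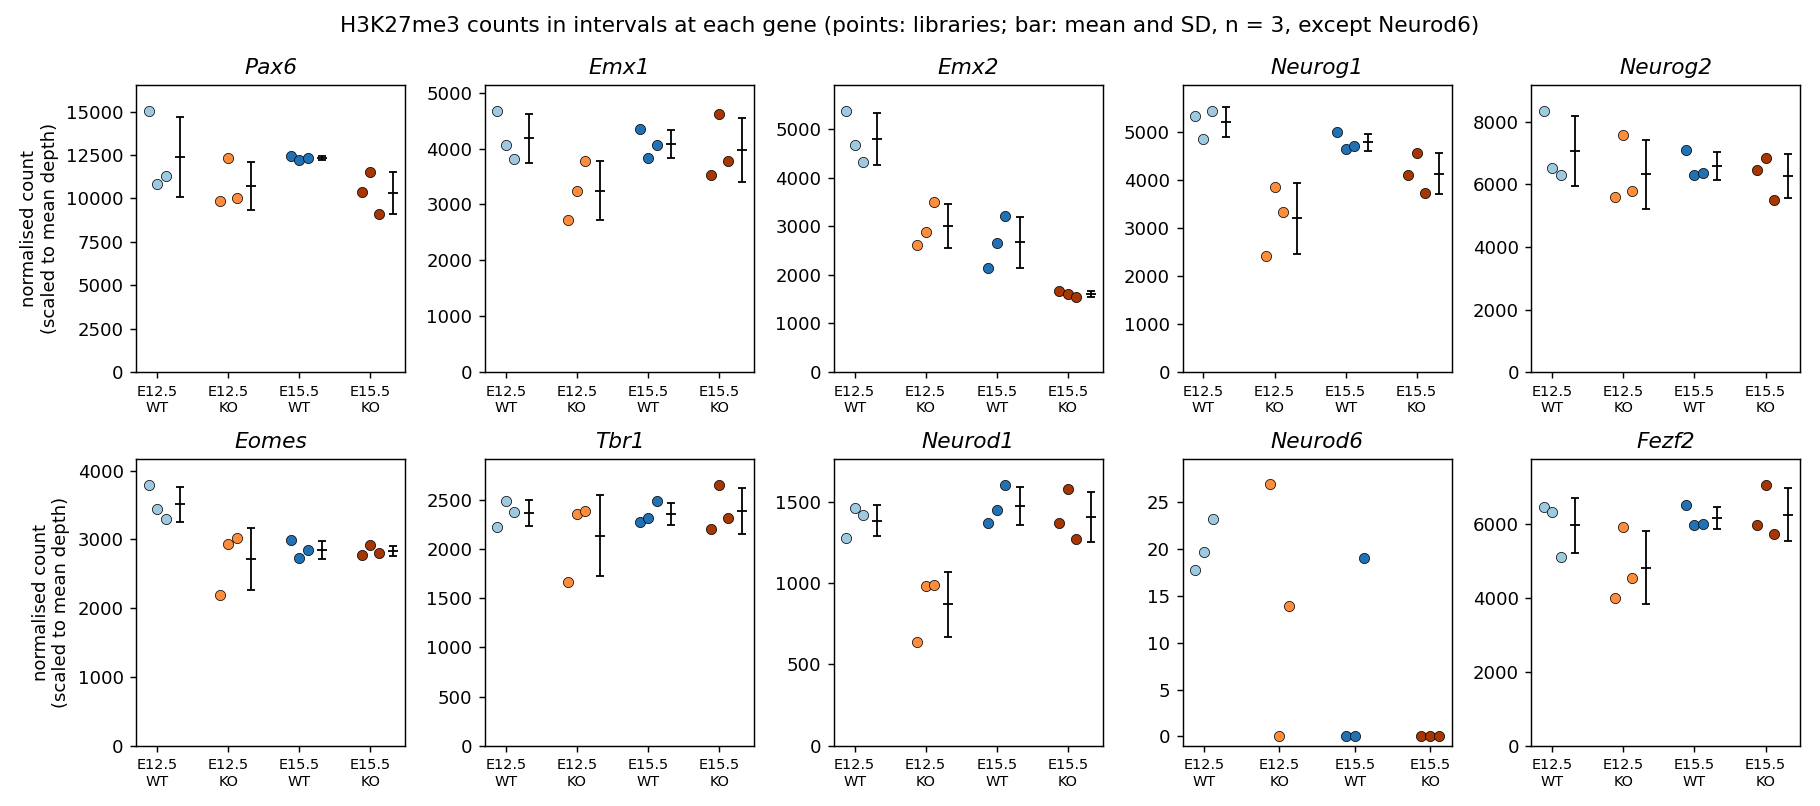
Normalised H3K27me3 count at each gene in each of the 12 libraries (points, replicates 1 to 3 from left to right), with the mean and SD of 3 libraries per group beside them, except at Neurod6. The vertical scale differs between genes; at Emx2 the group means go from 4794 in E12.5 WT to 1606 in E15.5 KO, and Neurod6 stays at or below 26.9 throughout.

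At E15.5 no gene passed the test, and the largest difference between the genotypes was at Emx2. Emx2 had 2145, 2664 and 3207 normalised counts in WT and 1663, 1602 and 1553 in KO. The KO values were close together and all below WT, and the KO mean was 60.1% of the WT mean. The log2 change was -0.73 (SE 0.15, unadjusted p = 0.00187, adjusted p = 0.170 in edgeR), which did not pass after adjustment.

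At Pax6 the counts were 12466, 12220 and 12320 in WT and 10401, 11497 and 9099 in KO. The groups did not overlap, with a log2 change of -0.26 (SE 0.11, adjusted p = 0.443 in edgeR). Neurog1 had 4988, 4635 and 4717 in WT and 4101, 4570 and 3719 in KO, also without overlap, at -0.21 (SE 0.11, adjusted p = 0.494 in edgeR). Per kb the Neurog1 groups overlapped. On normalised counts, no overlap with KO lower held for 3 of 9 genes, against 8.09% of all 2695 genes tested (218).

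For the other 6 genes the log2 change lay between -0.07 and 0.02, with SEs of 0.09 to 0.13. At Neurod1, for example, the counts were 1370, 1449 and 1603 in WT and 1366, 1576 and 1273 in KO, which overlapped. In edgeR 0 of 9 genes were called, against 0.0742% of all genes called lower (2) and 0.408% called higher (11). At an unadjusted p under 0.05, 1 of the 9 passed, Emx2, against 303 of all 2695 genes. The median log2 change was -0.07 for the 9 genes and -0.01 for all genes. Of 26 other dorsal genes and 14 ventral genes none was called (2 and 3 had an unadjusted p under 0.05), with medians of -0.05 and 0.24.

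With merged regions Emx2 was called lower at E15.5 (log2 change -0.74, adjusted p = 0.00452 in edgeR), in a fit that called 1.73% of 2781 regions lower. DESeq2 with its own size factors also called it (-0.75, adjusted p = 1.93e-06), in a fit that called 24 of 2695 genes lower. Over all 14 alternatives with a value the adjusted p ran from 1.93e-06 to 0.520.

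When both stages were fitted together, Emx2 was the only one of the 9 genes called, and it was called lower in KO. The log2 change was -0.70 (SE 0.13, adjusted p = 0.0222 in edgeR), and the normalised counts in KO were below WT in each stage without overlap. Per kb this held at E15.5 and not at E12.5. Of all 2492 genes tested, 0.923% were called lower (23) and 0.0401% higher (1), and Emx2 ranked 7 by p. Neurog1 followed at -0.46 (SE 0.14, adjusted p = 0.121), then Neurod1 at -0.37 (adjusted p = 0.219) and Pax6 at -0.23 (adjusted p = 0.234), none of which passed. The median of the 9 genes was -0.20, that of all genes -0.29.

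The Emx2 call over both stages held in 10 of 20 alternatives, with adjusted p from 1.89e-05 with merged regions to 0.172 with TMM factors, and the log2 change was negative in all 20, from -0.76 to -0.42. It was lost with TMM factors (-0.43, in a fit that called 1.97% of genes lower), with DESeq2 (-0.42, adjusted p = 0.0761), with an interval in most libraries only (adjusted p = 0.0734) and with the replicate number as a block (0.0937). It was also lost without any one of 6 libraries: E12.5 WT replicate 3, E12.5 KO replicates 2 and 3, E15.5 WT replicates 2 and 3, and E15.5 KO replicate 3 (adjusted p 0.0513 to 0.0750). With merged regions Neurog1 was called too (-0.45, adjusted p = 0.00597), where 5.87% of 2368 regions were called lower.

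Whether the genotype difference itself changed with stage was tested as an interaction. None of the 9 genes passed in edgeR, against 0% of 2492 genes called lower and 0.562% called higher (14). At an unadjusted p under 0.05, 1 of the 9 passed, Neurod1, against 686 of all 2492 genes. At Emx2 the interaction was -0.06 (SE 0.26, adjusted p = 0.864), so its difference at E12.5 and that at E15.5 were not distinguished. The largest was at Neurod1, 0.60 (SE 0.27, adjusted p = 0.178). The median was 0.33 for the 9 genes and 0.61 for all genes, and with TMM factors the 2 medians were -0.27 and 0.02.

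**Figure D3:**
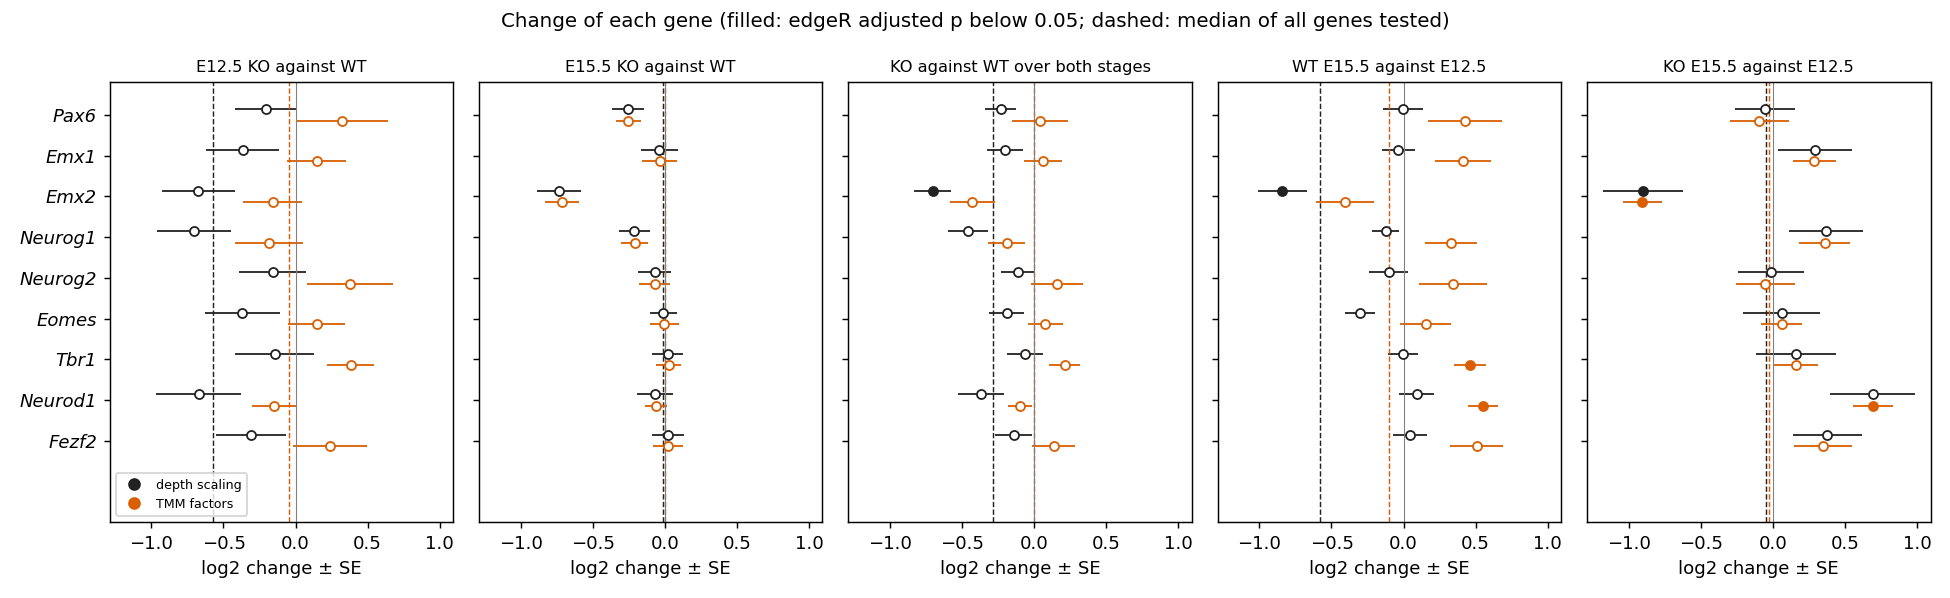
Log2 change with SE of the 9 genes tested in 5 comparisons (KO against WT at each stage and over both, and E15.5 against E12.5 in each genotype), with depth scaling in black and TMM factors in orange. Filled points passed an adjusted p of 0.05 in edgeR, dashed lines mark the median of all genes tested, and Emx2 lies to the left of the other genes in the E15.5, both-stage and stage panels.

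The stages were then compared within each genotype. These comparisons use the same 12 libraries as the genotype comparisons, and the E12.5 and E15.5 dissections differed as described. In WT, Emx2 fell from 4794 ± 535 to 2672 ± 531 normalised counts (SD, n = 3 each), a log2 change of -0.84 (SE 0.17, adjusted p = 0.0150 in edgeR). The highest E15.5 value, 3207, was below the lowest E12.5 value, 4328. Per kb the groups overlapped, with a highest E15.5 value of 125 and a lowest E12.5 value of 124. Emx2 was 1 of 9 genes called lower, against 35.8% of all 2624 genes (939), and 0 were called higher, against 1.71% (45).

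At most of the pallial regulators the WT difference between stages was near 0, whereas the typical gene with the mark was lower at E15.5. The median log2 change was -0.04 for the 9 genes and -0.58 for all genes. Pax6 had 12389 ± 2304 counts at E12.5 and 12335 ± 124 at E15.5, and Tbr1 had 2363 ± 131 and 2357 ± 111. Eomes, the T-box factor of intermediate progenitors, had 3796, 3438 and 3302 at E12.5 and 2989, 2728 and 2843 at E15.5. Its groups did not overlap in normalised count, though they did per kb, and the change of -0.30 (SE 0.10, adjusted p = 0.0588 in edgeR) missed the threshold. On normalised counts, no overlap with E15.5 lower held for Emx2 and Eomes, 2 of 9, against 52% of all genes.

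Of 26 other dorsal genes tested, 2 were called lower and 3 higher, and with TMM factors 1 was called lower and 7 higher. The WNT ligand genes Wnt3a (-1.30, adjusted p = 0.0118) and Wnt8b (-0.80, adjusted p = 0.00708) fell, whereas Otx1 (0.47, adjusted p = 0.0156), Lef1 (0.46, adjusted p = 0.0240) and Sp8 (0.32, adjusted p = 0.0342) rose in edgeR. Of these, Wnt8b was not called with TMM factors (-0.34, adjusted p = 0.186). Of 14 ventral genes 9 were called lower and 0 higher, with a median of -0.86. Among them were the GABA synthesis genes Gad1 (-1.21) and Gad2 (-1.17) and the interneuron factor Lhx6 (-0.69). With TMM factors 3 ventral genes were called lower and 4 higher, with a median of -0.42, and Lhx6 was not called (-0.24, adjusted p = 0.330). With TMM factors the WT median moved to 0.41 for the 9 genes and to -0.10 for all genes. Emx2 was then not called (-0.41, adjusted p = 0.169), while Neurod1 (0.55, adjusted p = 0.0139) and Tbr1 (0.46, adjusted p = 0.0282) were called higher, in a fit that called 17.1% of genes lower and 10.3% higher. The Emx2 call in WT was also lost with DESeq2 (-0.32, adjusted p = 0.326). Without E15.5 WT replicate 1 (adjusted p = 0.0565 in edgeR) or without replicate 2 (0.0679) it was lost too.

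In KO, Emx2 again fell between the stages, from 3005 ± 451 to 1606 ± 55.3 normalised counts (SD, n = 3 each). The log2 change was -0.90 (SE 0.28, adjusted p = 0.0291 in edgeR), and the highest E15.5 value, 1663, lay below the lowest E12.5 value, 2622, as for 12.4% of genes. Emx2 was the only one of 9 genes called lower, against 5.49% of 3003 genes (165), and 0 were called higher, against 4.13% (124). Here the scaling mattered little: with TMM factors Emx2 was at -0.91 (adjusted p = 0.00333), where 7.69% of genes were called lower. The call was lost without any one of 5 of the 6 KO libraries, all but E12.5 KO replicate 1, with adjusted p from 0.0640 to 0.161 and log2 changes from -0.93 to -0.78.

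Neurod1 went the other way in KO, with 641, 982 and 986 normalised counts at E12.5 and 1366, 1576 and 1273 at E15.5. All E15.5 values were above all E12.5 values, as for 11.4% of genes, and the change of 0.69 (SE 0.29, adjusted p = 0.155) was not called in edgeR. With TMM factors the same size of change, 0.69, was called (adjusted p = 0.0131), in a fit that called 8.82% of genes higher. The median of the 9 genes was 0.16 and that of all genes -0.05. In KO, 7 of 15 ventral genes were called lower and 1 higher, with a median of -0.97, led by the homeobox gene Gsx2 at -2.03. Among those called lower, Dlx5 and Dlx6 (both -1.11) had the same counts, and Dlx1 (-1.34) and Dlx2 (-1.33) nearly the same. The genes of each pair are thus not separate observations. Of 28 other dorsal genes 2 were called lower (Pou3f2 at -1.57 and Insm1 at -1.01) and 1 higher (Lef1 at 1.17). With TMM factors 1 was called lower and 6 higher, and Pou3f2 was not called (adjusted p = 0.0975).

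Because the scaling moves the changes of all genes in a library together, Emx2 was also set against the other genes of the set inside each library, where no scaling enters. The measure is the log2 count of Emx2 minus the mean log2 count of the 8 others that had intervals in all libraries. It was chosen after the values had been seen and is given as a description with no test. It was 0.21, 0.13 and 0.07 in the E12.5 WT replicates and -0.08, -0.41 and -0.01 in E12.5 KO. At E15.5 it was -1.003, -0.61 and -0.40 in WT and -1.21, -1.46 and -1.24 in KO. KO lay below WT at both stages and E15.5 below E12.5 in both genotypes, with no overlap in any of these 4 comparisons. The share of all genes without overlap was not computed for this measure. On normalised counts, 33% and 8.09% of genes were lower without overlap in KO at E12.5 and E15.5. For E15.5 against E12.5 it was 52% in WT and 12.4% in KO. The group means were 0.14 ± 0.07, -0.16 ± 0.21, -0.67 ± 0.31 and -1.31 ± 0.14 (SD, n = 3 each). A ratio of this kind shows unequal change and not which genes stayed the same.

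**Figure D4:**
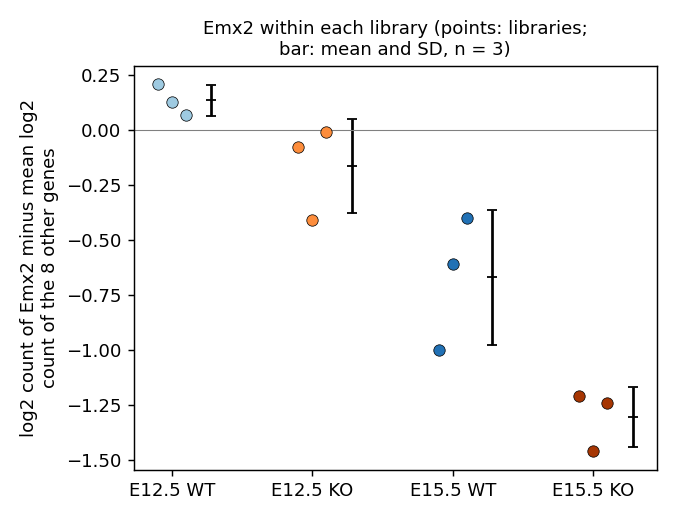
Log2 count of Emx2 minus the mean log2 count of the 8 other genes in the same library, with 1 point per library and the mean and SD of 3 libraries beside each group. The values go down from between 0.07 and 0.21 in E12.5 WT to between -1.46 and -1.21 in E15.5 KO, and neighbouring groups do not overlap in the comparisons of genotype or of stage.

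By the same within-library measure, Tbr1, against its 8 companions, was higher in KO at both stages without overlap, by 0.28 at E12.5 and 0.19 at E15.5 on the log2 scale. Neurod1 was higher at E15.5 than at E12.5 in both genotypes, by 0.26 in WT and 0.67 in KO. Neurog1 was lower in KO at E12.5 by 0.36, more than the 0.30 by which Emx2 was lower there, and at E15.5 its groups overlapped. The measure takes in whole intervals, which at Neurog1 were longest on average in E12.5 WT. None of the 8 was on the same side without overlap in all 4 comparisons. For these genes, too, no share over all genes was computed.

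The Emx2 intervals were longest in E12.5 WT. Their length was 31.1 ± 5.86 kb in E12.5 WT, 25.9 ± 0.945 kb in E12.5 KO, 24.1 ± 1.29 kb in E15.5 WT and 24.9 ± 1.89 kb in E15.5 KO (SD, n = 3 each). The normalised count per kb was 158 ± 39.1, 116 ± 18.1, 110 ± 16.6 and 64.7 ± 2.70 in the same order, so E15.5 KO had the lowest density over an interval of about the same length as in E15.5 WT. In the order of densities among the 9 genes, Emx2 went from places 4 to 6 in E12.5 WT to the last place, 9, in all 3 E15.5 KO libraries. Between these it held places 6, 8 and 7 in the E12.5 KO replicates and 9, 7 and 7 in those of E15.5 WT.

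The genes differed in how closely they followed each other across the 12 libraries. Pearson's r of a gene's log2 normalised count with the mean of the other members was 0.90 at Neurog1, 0.86 at Eomes, 0.78 at Emx1 and 0.70 at Pax6. It was between 0.63 and 0.65 at Neurog2, Fezf2, Tbr1 and Neurod1, and 0.22 at Emx2. Among 2483 other genes with intervals in all 12 libraries, the median r with the mean profile of the 9 genes was 0.48. The closest were Ebf3 (0.93), Slc17a7 (0.93), which encodes a vesicular glutamate transporter, Esrra (0.92), Ankrd63 (0.92) and Kcnk4 (0.92). Esrra and Kcnk4 lie side by side and share an interval, so they are not separate observations. These values describe 12 libraries that share the depth scaling and fall into 4 groups.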

How the data were processed

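Intervals of H3K27me3 CUT&Tag were used for 12 libraries, each with its own list that was not pooled over replicates. The count of reads in an interval is the whole number the authors deposited, not normalized. The interval score is also used as deposited. The submitters' processing notes name cutadapt, Bowtie2, SAMtools, Picard, deepTools and SICER, with no versions, and the builds GRCm38 and mm10. Interval widths are multiples of 200 bp, and neighbouring intervals lie at least 800 bp apart. In intervals of 1 window below a score of 1000, the score equals minus the natural log of the Poisson probability of that count, given a single mean for the whole library, with a largest misfit of 0.00407. That mean was taken as the depth of the library, on the assumption that it is proportional to the reads. The lists hold no value outside called intervals, so the test covers only genes with an interval in every library compared.

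Counts of all intervals that overlap a gene body with 2500 bp on either side were summed for autosomal protein-coding genes and compared by the quasi-likelihood test of edgeR 4.0.16 (library sizes proportional to depth, Benjamini-Hochberg adjustment over all genes tested, threshold 0.05) in R 4.3.3. The SE is the size of the log2 change over the square root of F. Each comparison was fitted on its own groups, and the fits over both stages on all 4. A wide interval can count for several genes: the 2492 genes with an interval in all 12 libraries hold 2388 distinct sets of counts. Alternatives were TMM factors, DESeq2 1.42.0, an interval in most libraries only, a mean count of at least 50, a score of at least 100, a share of 0.5 of the interval inside the gene window, counts in proportion to the overlap, merged regions, a block for the replicate number, and omission of each library in turn. On simulated counts with 100 genes changed 2-fold and 100 changed 4-fold, the test on gene windows recovered 13% and 89% at E12.5 (3140 genes), 30% and 88% at E15.5 (2695 genes) and 74% and 98% over both stages (2492 genes), with 9, 5 and 6 false calls.

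The 10 genes and the lists were chosen with earlier results of these data known. All 10 are named, and of the 36 other dorsal, 16 ventral and 15 housekeeping genes those past the threshold, up to 5 per list and comparison, of which the text gives a selection in the stage comparisons. The 5 genes most like the set are those with the highest Pearson r. Listed genes that are not autosomal are outside the tests. Sequences are from RefSeq (GRCm38.p6), with the CG dinucleotide as the only motif counted. Python 3.11.15, numpy 2.4.6, pandas 2.3.3 and matplotlib 3.10.9 were used.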

Additional observations from a re-analysis of the deposited data

How the results depend on the processing

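TMM factors turned the sign at 6 of the 9 genes in each of 4 comparisons (KO against WT at E12.5 and over both stages, the interaction, and WT between stages) and at 0 of 9 in the other 2. Emx2 kept a negative log2 change for KO against WT at each stage and over both, and between the stages in each genotype, under every alternative that gave a value. On simulated counts the test on gene windows recovered 13% of 2-fold changes at E12.5 and 30% at E15.5, and that on merged regions 42% and 61%; the part of depth in this was not tested. The requirement that at least a share of 0.5 of an interval lie inside the gene window left 4 genes (Pax6, Emx1, Tbr1 and Neurod1) and no value for Emx2 or Neurog1; 0 members were then called over both stages and between stages in WT and in KO.

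With TMM factors the median of the genes was 0.15 at E12.5, 0.06 over both stages, -0.27 for the interaction and 0.41 for WT between stages, and the number called was 0 over both stages, 2 for WT between stages and 2 for KO between stages. For KO against WT at E12.5 the sign turned at Pax6 (0.33), Emx1 (0.15), Neurog2 (0.38), Eomes (0.15), Tbr1 (0.38) and Fezf2 (0.24). Over both stages it turned at Pax6 (0.038), Emx1 (0.062), Neurog2 (0.16), Eomes (0.078), Tbr1 (0.21) and Fezf2 (0.13). For the interaction it turned at Emx1 (-0.24), Neurog1 (-0.080), Neurog2 (-0.50), Eomes (-0.20), Tbr1 (-0.41) and Fezf2 (-0.27). For WT between stages it turned at Pax6 (0.43), Emx1 (0.41), Neurog1 (0.33), Neurog2 (0.34), Eomes (0.15) and Tbr1 (0.46).

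With DESeq2 the median was 0.20 at E12.5, 0.07 over both stages, -0.30 for the interaction and 0.51 for WT between stages. The number called was 1 at E15.5, 0 over both stages, 3 for WT between stages and 2 for KO between stages. The 3 for WT were Tbr1 (0.56), Neurod1 (0.66) and Fezf2 (0.61), all higher, and Emx2 was not called there. Of all genes, DESeq2 called 24 lower and 48 higher of 2695 at E15.5, and 113 and 104 of 2492 over both stages. Between stages it called 382 lower and 373 higher of 2624 in WT, and 258 and 305 of 3003 in KO. At E12.5 the sign turned at Pax6 (0.37), Emx1 (0.20), Neurog2 (0.43), Eomes (0.20), Tbr1 (0.44) and Fezf2 (0.29), and at E15.5 at Fezf2 (-0.0070). Over both stages it turned at Pax6 (0.050), Emx1 (0.073), Neurog2 (0.17), Eomes (0.090), Tbr1 (0.23) and Fezf2 (0.15). For the interaction it turned at Emx1 (-0.27), Neurog1 (-0.11), Neurog2 (-0.53), Eomes (-0.24), Tbr1 (-0.44), Neurod1 (-0.0061) and Fezf2 (-0.30). For WT between stages it turned at Pax6 (0.52), Emx1 (0.51), Neurog1 (0.43), Neurog2 (0.44), Eomes (0.25) and Tbr1 (0.56).

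With counts in proportion to the overlap the median was -0.19 at E12.5 and -0.10 for the interaction, and 0 were called for WT between stages, where Emx2 was at -0.52 (adjusted p = 0.0927). The sign turned at E12.5 at Neurog2 (0.094) and Fezf2 (0.23), and at E15.5 at Eomes (0.15), Tbr1 (-0.041) and Fezf2 (-0.26). It turned for the interaction at Neurog1 (-0.10), Neurog2 (-0.33) and Fezf2 (-0.49), and for WT between stages at Pax6 (0.071), Neurog1 (0.48), Neurog2 (0.11) and Tbr1 (0.097). With merged regions 2 were called at E12.5, 1 at E15.5, 2 over both stages and 2 for WT between stages, and Eomes at E15.5 was at 0.027. With a score of at least 100, 1 was called at E12.5 (Neurog1, adjusted p = 0.0458) and 2 for WT between stages (Emx2 and Eomes). With an interval in most libraries 0 were called over both stages (Emx2 adjusted p = 0.0734) and for KO between stages (0.0785). The cause of these shifts was not tested.

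Replicate numbers are shared by the groups, and whether they pair the samples is not stated. Between genotypes, the deviations of same-numbered libraries correlated at 0.23, 0.019 and 0.17 at E12.5, where replicates 1 and 3 matched their own number best. At E15.5 the correlations were -0.22, -0.20 and -0.35, with no best match. Between the stages they correlated at 0.39, -0.0060 and 0.30 in WT, where replicates 1 and 3 matched their own number best, and at 0.0078, -0.043 and -0.028 in KO. With the replicate number as a block, the median of the genes was -0.37 at E12.5, -0.07 at E15.5, -0.21 over both stages and 0.33 for the interaction. Under the block 0 were called over both stages (Emx2 -0.70, adjusted p = 0.0937), Pax6 for WT between stages was at 0.0098, and all genes called lower over both stages went from 23 to 5.

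When each replicate was left out in turn, the number called ran from 0 to 1 over both stages and for KO between stages, and from 0 to 2 for WT between stages, where Emx2 was lost without E15.5 WT replicate 1 or 2 and Pax6 was called without E12.5 WT replicate 1 (0.16, adjusted p = 0.0486). Signs turned at these genes, all near 0 and not called in the fit of all libraries. At E12.5 the range was -0.23 to 0.0056 at Tbr1. At E15.5 it was -0.16 to 0.041 at Emx1, -0.041 to 0.024 at Eomes, -0.063 to 0.075 at Tbr1, -0.074 to 0.081 at Fezf2 and -0.14 to 0.017 at Neurog2. Over both stages it was -0.11 to 0.013 at Tbr1. For the interaction it was -0.048 to 0.24 at Neurog2, -0.21 to 0.064 at Pax6 and -0.20 to 0.091 at Emx2. For WT between stages it was -0.093 to 0.16 at Pax6, -0.099 to 0.050 at Emx1, -0.18 to 0.035 at Neurog2, -0.045 to 0.034 at Tbr1 and -0.053 to 0.11 at Fezf2. For KO between stages it was -0.072 to 0.14 at Eomes, -0.14 to 0.058 at Pax6 and -0.092 to 0.14 at Neurog2.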
